A study of Mus musculus with 17 samples.

Results

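Pcp2, Pcp4, Calb1, Car8, Itpr1, Rora, Foxp2, Skor2 and Lhx1 are genes by which Purkinje cells of the cerebellum are commonly recognised. They were taken by name, and all 9 were found among the 31438 genes of the deposited counts. RNA was measured in whole cerebella of C57BL/6 mice at postnatal day 3, after the meninges had been removed, in 17 samples of 4 genotypes that all carried Math1-Cre. The controls of the first background were Math1-Cre;Bax-loxP/loxP;Bak--/- (4 samples, called Bax/Bak controls here), and the same alleles with Atr-loxP/loxP were carried by 5 samples (Atr Bax/Bak cerebella). The controls of the second background were Math1-Cre;p53-loxP/loxP (3 samples, p53 controls), and Atr-loxP/loxP was added to those alleles in 5 samples (Atr p53 cerebella). By these labels the Bak allele is not conditional, so Purkinje cells of the first background lack Bak as well. All groups carried Cre, and no wild-type cerebella were analysed here. Samples are numbered within each group in the order of deposit. Nothing in the labels says that each came from a separate animal, so p-values measure only the spread between these samples, which may be technical.

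Purkinje cells are the output neurons of the cerebellar cortex. They are born before birth from the ventricular zone, outside the Math1 lineage, so Math1-Cre acts chiefly in granule cell progenitors and not in them. At this age they are settling into a layer and growing dendrites beneath the dividing progenitors, to which they supply Sonic hedgehog. Their identity rests on transcription factors such as Skor2, Lhx1, Foxp2 and RORα, and their signalling on receptors that release calcium from internal stores through the IP3 receptor Itpr1. Several of the genes are not confined to them: Rora is also used by molecular layer interneurons, Foxp2 by neurons of the cerebellar nuclei, and Itpr1 and Pcp4 by many neurons. The study, by its title, concerned the DNA damage kinase Atr in postnatal cerebellar neurogenesis. The comparisons here ask whether RNA of Purkinje cells differed between Atr-loxP/loxP cerebella and their controls.

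Of the Atr p53 samples, the third held 13601 counts against 42987953 to 100659645 in the other 16 libraries, and was left out of all values below except where named. Its name is that of Atr p53 sample 1 with a suffix that the labels do not explain, so it may not be a separate sample. Bak1 was at 0.237 to 0.607 CPM (counts scaled to each library's TMM-adjusted size) in the 9 samples labelled Bak--/- and at 32.6 to 41.6 CPM in the others. Trp53 and Bax were each lower in the background that carried their floxed alleles, and Atr did not differ by the test in either background: it was at 43.4 ± 3.99 CPM (SD, n = 4) in Bax/Bak controls and 40 ± 3.07 CPM (SD, n = 5) with Atr-loxP/loxP, edgeR adjusted p = 0.28, and at 37 ± 1.11 (SD, n = 3) against 37.1 ± 2.83 CPM (SD, n = 4) in the p53 background, adjusted p = 0.977. A total over the whole Atr gene in whole cerebellum does not check a deletion of some exons in a single lineage. All 9 Purkinje cell genes were detected in each of the 16 libraries, the lowest value being 14.1 CPM for Skor2.

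Sequence before the starts of 4 of the 9 genes (Pcp2, Pcp4, Rora and Lhx1) was matched in the RefSeq promoter table (GRCm38.p6). It is shown because AGGTCA, the core hexamer bound by RORα and other nuclear receptors, can be searched in it. Each line is read 5′ to 3′ on the gene's strand, without annotated UTR bases, with AGGTCA or its reverse complement TGACCT in capitals. The stretches are chr8:3625050-3625209 (minus strand) for Pcp2, chr16:96467356-96467605 (plus) for Pcp4, chr9:68653536-68653785 (plus) for Rora and chr11:84525536-84525784 (minus) for Lhx1.
Pcp2: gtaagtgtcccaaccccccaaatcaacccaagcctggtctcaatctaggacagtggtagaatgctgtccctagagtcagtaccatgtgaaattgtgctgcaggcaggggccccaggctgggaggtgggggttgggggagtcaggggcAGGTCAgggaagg
Pcp4: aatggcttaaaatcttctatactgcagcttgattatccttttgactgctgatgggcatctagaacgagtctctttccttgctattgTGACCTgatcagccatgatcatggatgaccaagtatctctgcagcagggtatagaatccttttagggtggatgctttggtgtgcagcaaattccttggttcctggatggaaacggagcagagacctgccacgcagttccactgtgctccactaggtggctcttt
Rora: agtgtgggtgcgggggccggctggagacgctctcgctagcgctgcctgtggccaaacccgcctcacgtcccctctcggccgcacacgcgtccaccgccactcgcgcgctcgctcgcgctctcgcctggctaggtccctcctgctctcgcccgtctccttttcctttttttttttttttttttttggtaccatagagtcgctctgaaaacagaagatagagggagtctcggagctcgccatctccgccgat
Lhx1: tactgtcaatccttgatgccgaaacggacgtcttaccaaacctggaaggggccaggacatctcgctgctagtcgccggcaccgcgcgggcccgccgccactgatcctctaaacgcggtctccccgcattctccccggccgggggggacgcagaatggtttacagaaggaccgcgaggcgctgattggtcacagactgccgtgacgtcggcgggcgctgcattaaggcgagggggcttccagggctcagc
The Pcp2 stretch lies before the most downstream of its 4 RefSeq starts, at 3625036, and its AGGTCA begins 26 bases before that start. The match in Pcp4 is on the opposite strand, beginning 164 bases before the start. In windows of 250 bases before each start, searched on both strands, AGGTCA occurred in 14% of 32851 windows of all genes, in 14.7% of 34 windows of other Purkinje cell genes and in 4 of the 7 windows of these 4 genes. The windows of 1 gene can overlap, and the 4 belonged to Pcp2 and Pcp4. Counted by gene, a match occurred in 2 of these 4 genes and in 4260 of all 27025 genes. The Pcp2 windows before the starts at 3625547 and 3625472 share the match at 3625559. No match lay in the window of Rora or of Lhx1, nor in the Pcp2 window before 3625282. The 7-base TAGGTCA, which contains AGGTCA and lies closer to the preferred RORα site, was in 2.23% of all windows and in none of the 7 windows of these genes. A match is a description of the letters and not evidence of binding.

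In the Bax/Bak background 7 of the 9 genes were higher in Atr Bax/Bak cerebella than in Bax/Bak controls and none was lower, at an edgeR adjusted p under 0.05. The largest differences were in Pcp2, with a fold of 1.94, and Itpr1, with a fold of 1.64, and only Foxp2 and Lhx1 were not called. Over all 17405 genes tested 44.5% were called, 22.5% higher and 22% lower, so calls were common in this comparison. The median log2 fold change of the 9 genes was 0.45, against 0.04 over all genes tested. In bulk RNA a larger share of cells of a type and more RNA per cell cannot be told apart.

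**Figure D1:**
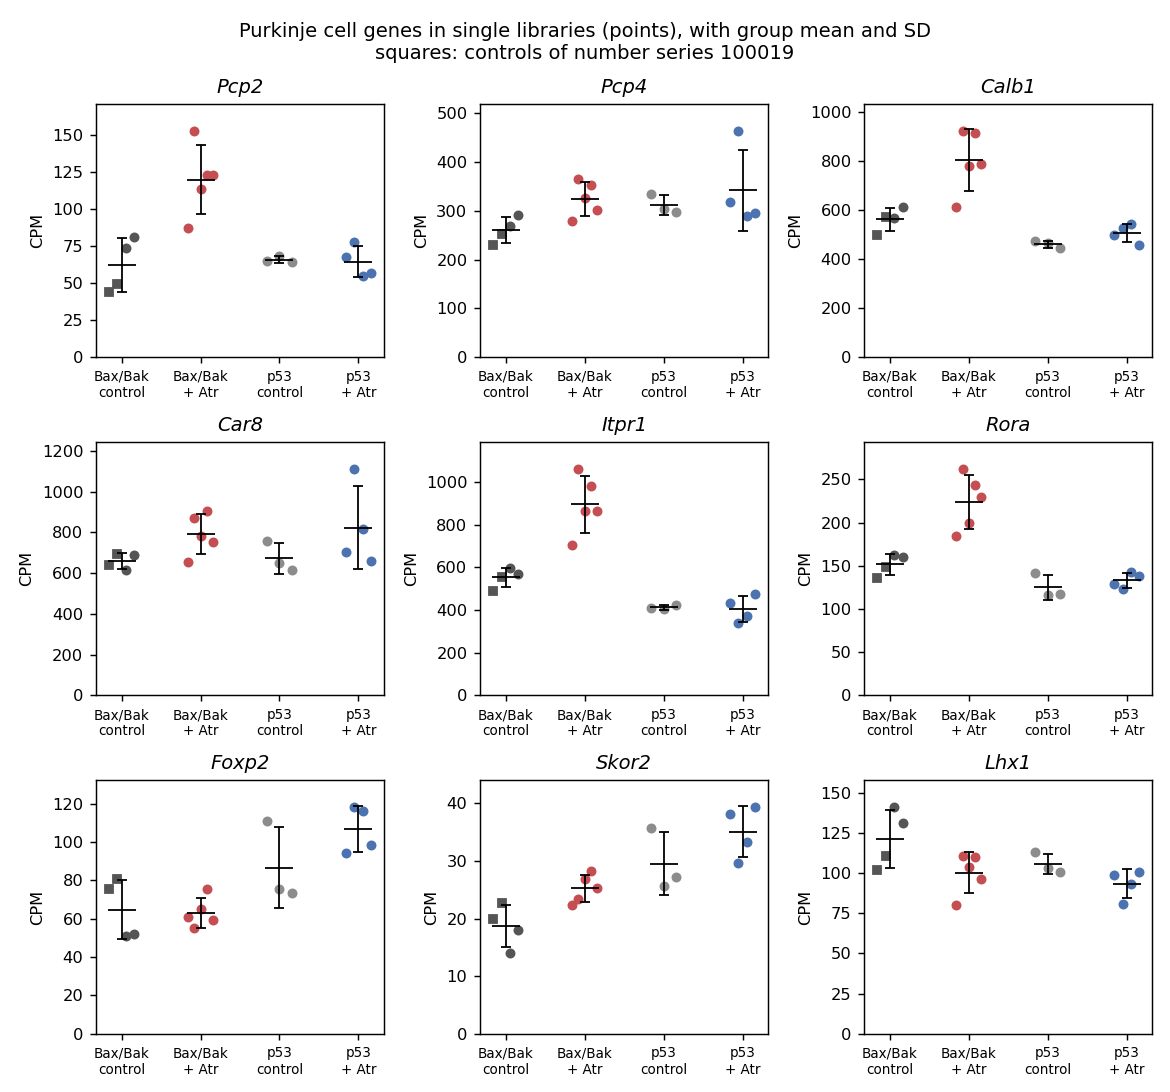
CPM of the 9 Purkinje cell genes in each of the 16 deep libraries (points), with the mean and SD of each group (bars); the y axis starts at 0, and squares are the Bax/Bak controls of number series 100019. All Atr Bax/Bak libraries lie above all Bax/Bak controls for Pcp2, Itpr1 and Rora, whereas the p53 groups overlap for these genes.

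Pcp2 (chromosome 8, 3623371 to 3625545, minus strand of GRCm38) encodes a small GoLoco-domain protein that binds G protein alpha subunits and is the classical Purkinje cell marker. It was at 43.9, 49.8, 74 and 81.2 CPM in the 4 Bax/Bak controls and at 87.5, 153, 114, 123 and 123 CPM in the 5 Atr Bax/Bak cerebella. Every Atr library lay above every control, but the lowest of them exceeded the highest control by little. The means were 62.2 ± 18.2 (SD, n = 4) and 120 ± 23.5 CPM (SD, n = 5), a log2 fold change of 0.96 ± 0.22 (SE) with edgeR adjusted p = 0.00834. Pcp2 was at 64.9, 68.4 and 64.5 CPM in p53 controls and 67.8, 77.8, 55.1 and 57 CPM in Atr p53 cerebella, a log2 fold change of -0.03 ± 0.12 (SE). The controls there sat between the lowest and the highest Atr library. Of the exonic bases of Pcp2, 51.5% are also covered on the other strand by exons of Pet100, and the library kit marked strand, but whether the counting used it is not given in the sources used here. Pet100 itself had a difference of 0.07 ± 0.08 (SE) on the log2 scale in the Bax/Bak background (adjusted p = 0.506), which did not pass the test.

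Pcp4 (chromosome 16, 96467606 to 96525793, plus strand) encodes a small IQ-motif peptide that speeds the exchange of calcium on calmodulin. Bax/Bak controls held 229, 253, 268 and 292 CPM and Atr Bax/Bak cerebella 279, 365, 326, 352 and 302 CPM. The groups overlapped by 1 library on each side, and the log2 fold change was 0.33 ± 0.09 (SE), adjusted p = 0.0112. Without Bax/Bak control 1 or 2 it was 0.24 or 0.27, with adjusted p = 0.0511 and 0.0588. In a fit of all 4 groups adjusted p was 0.0599, and over the 21 alternatives it ran from 0.00326 to 0.154. With p53 floxed the controls were at 335, 304 and 298 CPM and the Atr cerebella at 319, 464, 289 and 295 CPM. Library 2 of the Atr p53 group stood above the others, and the log2 fold change of 0.14 ± 0.16 (SE) became -0.04 without it. Annotated Igsf5 exons on the same strand cover 23.7% of the exonic bases of Pcp4, so some reads of these genes cannot be assigned with certainty.

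Calb1, Car8 and Itpr1 act in calcium signalling, and all 3 were higher in Atr Bax/Bak cerebella than in Bax/Bak controls. Calb1 (chromosome 4, 15881264 to 15908064, plus strand) encodes calbindin, the calcium buffer that fills Purkinje cells. Its controls were at 499, 570, 568 and 614 CPM, and the Atr libraries at 612, 923, 779, 914 and 786 CPM. Only Atr Bax/Bak library 1 fell within the controls, just under the highest of them, and the log2 fold change was 0.53 ± 0.11 (SE), adjusted p = 0.00364. Calb1 of the p53 groups was at 472, 466 and 445 CPM in controls and 497, 526, 543 and 457 CPM with Atr-loxP/loxP. These groups overlapped through Atr p53 library 5, and the log2 fold change of 0.14 ± 0.09 (SE) was not called, adjusted p = 0.842.

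Itpr1 (chromosome 6, 108213096 to 108551109, plus strand) encodes the IP3 receptor that releases calcium from the endoplasmic reticulum. It was at 490, 554, 596 and 570 CPM in Bax/Bak controls and 706, 1060, 865, 981 and 865 CPM in Atr Bax/Bak cerebella. The lowest Atr library was above the highest control, with a log2 fold change of 0.71 ± 0.11 (SE) and adjusted p = 0.000389. The p53 controls were at 409, 404 and 425 CPM and the Atr p53 libraries at 434, 337, 371 and 475 CPM. The Atr libraries spread to both sides of the controls, and the log2 fold change was -0.02 ± 0.13 (SE), adjusted p = 0.979.

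Car8 (chromosome 4, 8143362 to 8239041, minus strand) encodes a catalytically inactive carbonic anhydrase homologue that binds the IP3 receptor and lowers its affinity for IP3. Bax/Bak controls were at 639, 695, 618 and 691 CPM and Atr Bax/Bak cerebella at 655, 869, 781, 905 and 754 CPM. The log2 fold change of 0.28 ± 0.09 (SE) passed the test with adjusted p = 0.0232, the weakest of the 7 calls. It was not called without Bax/Bak control 1, 2 or 3 or Atr Bax/Bak library 2 (log2 fold change 0.22 to 0.25, adjusted p = 0.0613 to 0.0832), nor in a fit of all 4 groups (adjusted p = 0.134). Over the 21 alternatives adjusted p ran from 0.00307 to 0.134. Among p53 controls Car8 was at 760, 648 and 614 CPM, and the Atr p53 libraries held 702, 1111, 816 and 661 CPM. The difference of 0.3 ± 0.18 (SE) on the log2 scale was of the same size as in the other background, did not pass the test (adjusted p = 0.829), and was 0.12 without Atr p53 library 2.

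The 4 transcription factors did not move together. Rora (chromosome 9, 68653786 to 69388246, plus strand) encodes the nuclear receptor RORα, which Purkinje cells need to mature and survive. It was at 136, 149, 162 and 160 CPM in Bax/Bak controls and 184, 262, 200, 243 and 230 CPM with Atr-loxP/loxP. The groups did not overlap, and the log2 fold change was 0.58 ± 0.1 (SE), adjusted p = 0.00106. Rora was at 142, 116 and 117 CPM in p53 controls and in the Atr p53 libraries at 129, 123, 143 and 138 CPM. Control 1 lay among the Atr libraries there, and the log2 fold change was 0.1 ± 0.1 (SE), adjusted p = 0.861. Skor2 (chromosome 18, 76856405 to 76900342, plus strand), a co-repressor needed for Purkinje cell differentiation, was at 19.9, 22.7, 14.1 and 18 CPM in Bax/Bak controls and 22.4, 23.4, 26.8, 28.2 and 25.3 CPM with Atr-loxP/loxP. A single control reached past the lowest Atr library, and the log2 fold change was 0.45 ± 0.13 (SE), adjusted p = 0.0137. With p53 floxed Skor2 was at 35.8, 25.6 and 27.2 CPM in controls and 38.1, 29.7, 33.3 and 39.3 CPM with Atr-loxP/loxP, a difference of 0.26 ± 0.14 (SE) on the log2 scale that did not pass the test (adjusted p = 0.813).

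Foxp2 and Lhx1 were not called in either background. Foxp2 (chromosome 6, 14901349 to 15441977, plus strand), a forkhead repressor of postmitotic Purkinje cells, was at 75.5, 80.4, 51 and 51.8 CPM in Bax/Bak controls and 60.7, 55.1, 65, 75.4 and 59.1 CPM with Atr-loxP/loxP. The controls formed a high pair and a low pair with the Atr libraries between them, and the log2 fold change was -0.02 ± 0.16 (SE), adjusted p = 0.942. Foxp2 of p53 controls was at 111, 75.6 and 73.2 CPM, and that of Atr p53 cerebella at 94, 118, 116 and 98.5 CPM, a log2 fold change of 0.31 ± 0.15 (SE), adjusted p = 0.785. Lhx1 (chromosome 11, 84518284 to 84525535, minus strand), a LIM homeodomain factor that acts with Lhx5 in Purkinje cell specification, was at 102, 111, 141 and 131 CPM in Bax/Bak controls and 80.2, 111, 104, 110 and 96.3 CPM with Atr-loxP/loxP. It had the most negative difference of the 9 genes, -0.26 ± 0.12 (SE) on the log2 scale, adjusted p = 0.101. Without Bax/Bak control 1 the difference was -0.37 with adjusted p = 0.0238, and over its 21 alternatives adjusted p ran from 0.00912 to 0.671. With p53 floxed Lhx1 was at 113, 103 and 101 CPM in controls and 98.9, 80.7, 93.5 and 101 CPM with Atr-loxP/loxP. The highest Atr library and the lowest control both rounded to 101 CPM, the groups did not overlap before rounding, and the log2 fold change was -0.17 ± 0.1 (SE), adjusted p = 0.825.

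Groups did not overlap for 3 of the 9 genes in the Bax/Bak background (Pcp2, Itpr1 and Rora, all higher), where this held for 38.3% of all genes tested, 17.1% with the Atr libraries higher. With p53 floxed it held for Lhx1 alone, with the Atr libraries lower, against 8.21% of genes, 4.62% lower. None of the 9 genes was called in the p53 background by edgeR, DESeq2 or limma-voom, and none had an unadjusted edgeR p under 0.05. There 0.0461% of 17348 genes were called, all 8 higher, so few genes of any kind were called in that smaller comparison. Log2 fold changes of the 9 genes ran from -0.17 (Lhx1) to 0.31 (Foxp2), with a median of 0.14 against 0.01 over all genes.

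**Figure D2:**
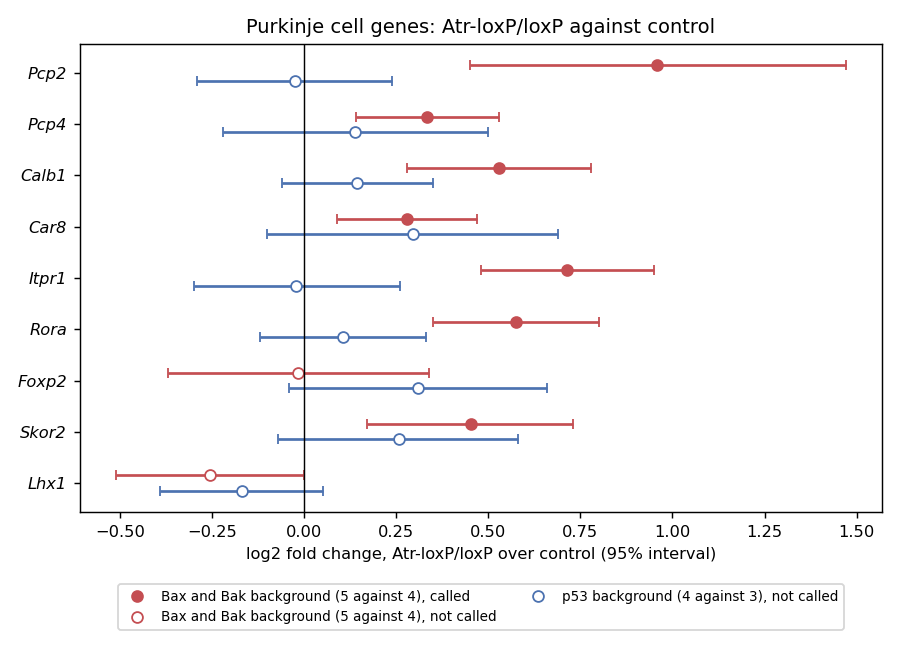
Log2 fold change of each Purkinje cell gene between Atr-loxP/loxP cerebella and controls (x axis) in the Bax/Bak background (red, 5 against 4) and the p53 background (blue, 4 against 3), with 95% intervals of the edgeR fits; filled points passed the test. The interval of Pcp2 runs from 0.45 to 1.47 in the Bax/Bak background and from -0.29 to 0.24 in the p53 background, and all blue intervals include 0.

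Whether the difference with Atr-loxP/loxP itself differed between backgrounds was tested as an interaction over the 16 deep libraries. It was larger in the Bax/Bak background for 3 of the 9 genes, Itpr1, Pcp2 and Rora, and smaller for none, where 16.2% of 18166 genes were called, 8.08% larger and 8.09% smaller. The difference between the log2 fold changes was 0.73 ± 0.17 (SE) for Itpr1, with adjusted p = 0.00804, and this call held on leaving out each of the 16 libraries in turn. For Pcp2 it was 0.98 ± 0.27 (SE), adjusted p = 0.024, and the call was lost without Bax/Bak control 2, Atr Bax/Bak library 2 or 5, or p53 control 2 or 3 (0.84 to 0.99, adjusted p = 0.0522 to 0.0617). For Rora it was 0.46 ± 0.15 (SE), adjusted p = 0.0405, and the call held only without Atr Bax/Bak library 1 or Atr p53 library 4 or 5, while leaving out any of the other 13 libraries gave 0.36 to 0.52 with adjusted p = 0.0505 to 0.117. Over all 26 alternatives adjusted p ran from 0.00264 to 0.0617 for Pcp2 and from 0.0225 to 0.117 for Rora.

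For the other 6 genes the difference between backgrounds did not pass the test, which does not show that they responded alike. Calb1 came nearest, at 0.38 ± 0.15 (SE) with adjusted p = 0.1 and 95% interval 0.06 to 0.7, and was called without Atr Bax/Bak library 1 (0.43, adjusted p = 0.0301, range over alternatives 0.0301 to 0.247). The interval was -0.21 to 0.58 for Pcp4, -0.23 to 0.61 for Skor2, -0.44 to 0.39 for Car8, -0.84 to 0.17 for Foxp2 and -0.43 to 0.24 for Lhx1. The genotype background, the deposited table and the number series of the samples cannot be told apart in this comparison.

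Levels without Atr-loxP/loxP were compared between p53 controls and Bax/Bak controls in the same fit. Skor2 was higher in p53 controls, 29.6 ± 5.5 (SD, n = 3) against 18.7 ± 3.6 CPM (SD, n = 4), a log2 difference of 0.66 ± 0.15 (SE) with adjusted p = 0.00672. Itpr1 was lower, 413 ± 11 (SD, n = 3) against 552 ± 45.1 CPM (SD, n = 4), a log2 difference of -0.42 ± 0.13 (SE) with adjusted p = 0.0302. The other 7 genes did not pass the test, and over all genes 18% were called, 9.3% higher and 8.71% lower. The control groups did not overlap for Pcp4 and Skor2, higher in p53 controls, and for Calb1 and Itpr1, lower there, against 31.5% of all genes (16.2% higher and 15.2% lower). The split of calls was 1690 higher to 1582 lower, and 2203 to 1308 with upper-quartile scaling. The call of Itpr1 was lost without Bax/Bak control 2, 3 or 4 or any of the 3 p53 controls (-0.44 to -0.4, adjusted p = 0.0523 to 0.0912, range over alternatives 0.0104 to 0.0912), whereas that of Skor2 was kept in all 26 alternatives. Pcp4, Calb1, Rora and Foxp2, with log2 differences of 0.26, -0.29, -0.28 and 0.42, were each called when a single library was left out: Pcp4 without Atr p53 library 2 (adjusted p = 0.0468, range 0.0468 to 0.435), Calb1 without Atr Bax/Bak library 1 (0.0323, range 0.0323 to 0.227), Rora without p53 control 1 (0.0452, range 0.0452 to 0.255) and Foxp2 without Bax/Bak control 2 (0.0492, range 0.0492 to 0.481).

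The sample names begin with a number whose meaning the labels do not give, called the number series here. Bax/Bak controls 1 and 2 carry 100019, controls 3 and 4 carry 1842, and all Atr Bax/Bak samples carry 1836. In this background the effect of Atr-loxP/loxP cannot be told apart from that of the number series. Values of several of the genes lay apart in the 2 series of controls, which were not tested against each other. Pcp2 averaged 46.9 CPM in series 100019 and 77.6 CPM in series 1842, and Foxp2 went the other way, at 77.9 and 51.4 CPM. Skor2 was at 21.3 and 16.1 CPM and Lhx1 at 107 and 136 CPM. The 2 series did not overlap for 7 of the 9 genes, all but Calb1 and Car8, with only 2 libraries in each, and for 51.9% of the 17405 genes tested.

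Against series 1842 controls alone, 4 of the 9 genes were called higher, namely Calb1, Itpr1, Rora and Skor2, with log2 fold changes of 0.41, 0.59, 0.44 and 0.62, where 44.9% of all genes tested were called, 20.2% higher and 24.6% lower. Lhx1 was then called lower, at -0.46 with adjusted p = 0.00912, and Pcp2 was at 0.6 with adjusted p = 0.0506 (range over its alternatives 0.000323 to 0.0506). Against series 100019 controls alone 5 were called higher and none lower, where 21.2% of all genes tested were higher and 20.4% lower (41.6% in all), and Pcp2 was at 1.37. Car8 and Skor2, both at 0.26, then missed the threshold with adjusted p = 0.0935 and 0.0596. Over the alternatives adjusted p of Skor2 ran from 0.00216 to 0.0596. Foxp2 changed direction with the controls used, 0.26 against series 1842 and -0.29 against series 100019, neither called. Calb1, Itpr1 and Rora were the genes called higher against either pair of controls.

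**Figure D3:**
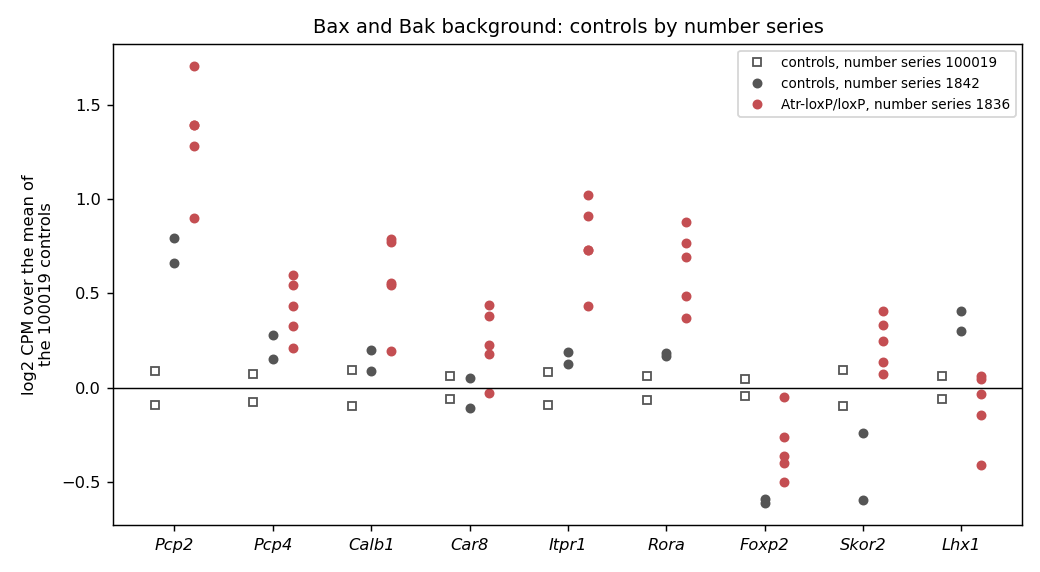
Log2 CPM of the 9 genes in the Bax/Bak background, relative to the mean of the controls of number series 100019 (y axis), for each library: open squares are controls of series 100019, grey points controls of series 1842 and red points Atr Bax/Bak cerebella. For Pcp2 the 1842 controls lie between the 100019 controls and the Atr libraries; for Foxp2 they lie below all Atr libraries and for Lhx1 above all of them.

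In the p53 background, control 1 shares its number series, 1843, with all Atr p53 samples, and controls 2 and 3 carry 1845. Control 1 was the highest of the 3 controls for 7 of the 9 genes, with Foxp2 at 111 CPM against 73.2 and 75.6 CPM and Skor2 at 35.8 against 25.6 and 27.2 CPM. Within series 1843 the log2 differences with Atr-loxP/loxP were -0.06 for Foxp2, -0.03 for Skor2 and -0.09 for Rora, each positive with all controls, and they ran from -0.28 (Lhx1) to 0.11 (Car8) over the 9 genes. None of the 9 was called within the series, which holds a single control.

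A list of 32 other genes of Purkinje cells was grouped by role. In the Bax/Bak background 25 of them were higher with Atr-loxP/loxP and none lower. Of all 17405 genes tested, 22.5% were higher and 22% lower. Without Bax/Bak control 1 or Atr Bax/Bak library 2 or 4, 1 of the 32 was lower. The median log2 fold change of the 32 was 0.51, against 0.04 over all genes tested. In the p53 background none was called by edgeR, DESeq2 or limma-voom, 1 of 32 had an unadjusted edgeR p under 0.05 (6.58% of all genes had), and the median was 0.01. The interaction was called for 14 of the 32, all larger in the Bax/Bak background, as it was for 8.08% of all 18166 genes tested. It was called for 9 of the 32 without Bax/Bak control 1 or 2, Atr Bax/Bak library 2 or p53 control 3. At a threshold of 0.01 it was called for 7 of the 32, all larger, and was larger for 618 of all genes tested. Against series 1842 controls alone 20 of the 32 were higher (20.2% of all genes tested), and 26 against series 100019 controls alone (21.2% of all genes).

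Receptors and channels of the Purkinje cell synapse were called higher in 5 of 7 cases, against 22.5% of all genes tested. Cacna1a, the pore of the P/Q-type calcium channel, was at 102, 103, 139 and 124 CPM in Bax/Bak controls and 161, 187, 148, 169 and 164 CPM with Atr-loxP/loxP. The lowest Atr library was above the highest control, and the log2 fold change was 0.52 ± 0.1 (SE), adjusted p = 0.00159. Its difference in the p53 background was 0.01, and the interaction was called.

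IP3 and calcium signalling genes had the largest median log2 fold change of the 5 roles, 1.16. Of these, 8 of 9 were higher, against 22.5% of all genes tested. Itpka, the kinase that converts IP3, was at 16.9, 18.9, 22.1 and 23.3 CPM in Bax/Bak controls and 37.2, 49.7, 36.6, 46.1 and 45.1 CPM with Atr-loxP/loxP. The gap between the groups exceeded the spread within the controls, and the log2 fold change was 1.09 ± 0.12 (SE), adjusted p = 5.95e-05. Itpka differed by -0.06 ± 0.12 (SE) between the p53 groups. Plcb3, a phospholipase C that makes IP3, rose by 0.28 ± 0.05 (SE), adjusted p = 0.000684. The interaction was called for Itpka (1.15, adjusted p = 0.000563) and not for Plcb3 (0.33, adjusted p = 0.144).

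Genes for GABA synthesis and vesicle loading were higher in 3 of 3 cases, against 22.5% of all genes tested. Gad2, a GABA-making enzyme, was at 36.4, 42.1, 50.9 and 43.4 CPM in Bax/Bak controls and 70.6, 78.1, 63.4, 72.4 and 82.7 CPM with Atr-loxP/loxP, a log2 fold change of 0.78 ± 0.1 (SE) with adjusted p = 0.000126. Slc32a1, the vesicular GABA transporter, rose by 0.75 ± 0.09 (SE), adjusted p = 6.8e-05. All GABAergic neurons use these genes, and all 8 of 8 markers of cerebellar interneurons also rose, with a median of 0.61. Their part in the differences was not tested.

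Among transcription factors 2 of 5 were higher, which in so short a list is not far above the 22.5% of all genes tested. Foxp4 rose by 0.4 ± 0.05 (SE), adjusted p = 5.85e-05, and Lhx5 by 0.52 ± 0.09 (SE), adjusted p = 0.00076. Lhx5, the partner of Lhx1, was at 28.9, 36, 35.2 and 35.9 CPM in Bax/Bak controls and at 42.2, 49.1, 44.6, 55.8 and 49.4 CPM with Atr-loxP/loxP. The groups did not overlap. The other factors, Ebf1, Ebf2 and Bcl11a at -0.15, 0.23 and 0.04, did not pass the test.

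Of the secreted, Reelin response and zone genes 7 of 8 were higher, against 22.5% of all genes tested. Shh, the mitogen that Purkinje cells supply to granule cell progenitors, was at 5.09, 5.15, 4.28 and 4.77 CPM in Bax/Bak controls and 6.47, 6.67, 6.45, 7.59 and 6.77 CPM with Atr-loxP/loxP. The groups did not overlap, and Shh rose by 0.51 ± 0.1 (SE), adjusted p = 0.00152. Shh of the p53 groups was at 6.42, 4.79 and 3.71 CPM in controls and 5.02, 7.13, 7.14 and 4.17 CPM with Atr-loxP/loxP, 0.25 ± 0.25 (SE) and not called, and the interaction was not called either (0.26, adjusted p = 0.545). Vldlr, a Reelin receptor, rose by 0.24 ± 0.04 (SE), adjusted p = 0.00104. Aldoc, the zebrin II antigen of Purkinje cell stripes and also an astrocyte enzyme, rose by 0.69 ± 0.08 (SE), adjusted p = 6.87e-05. In the list for astrocytes and Bergmann glia 10 of 11 genes rose and 1 fell, with a median of 0.51, and their part in the difference of Aldoc was not tested.

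**Figure D4:**
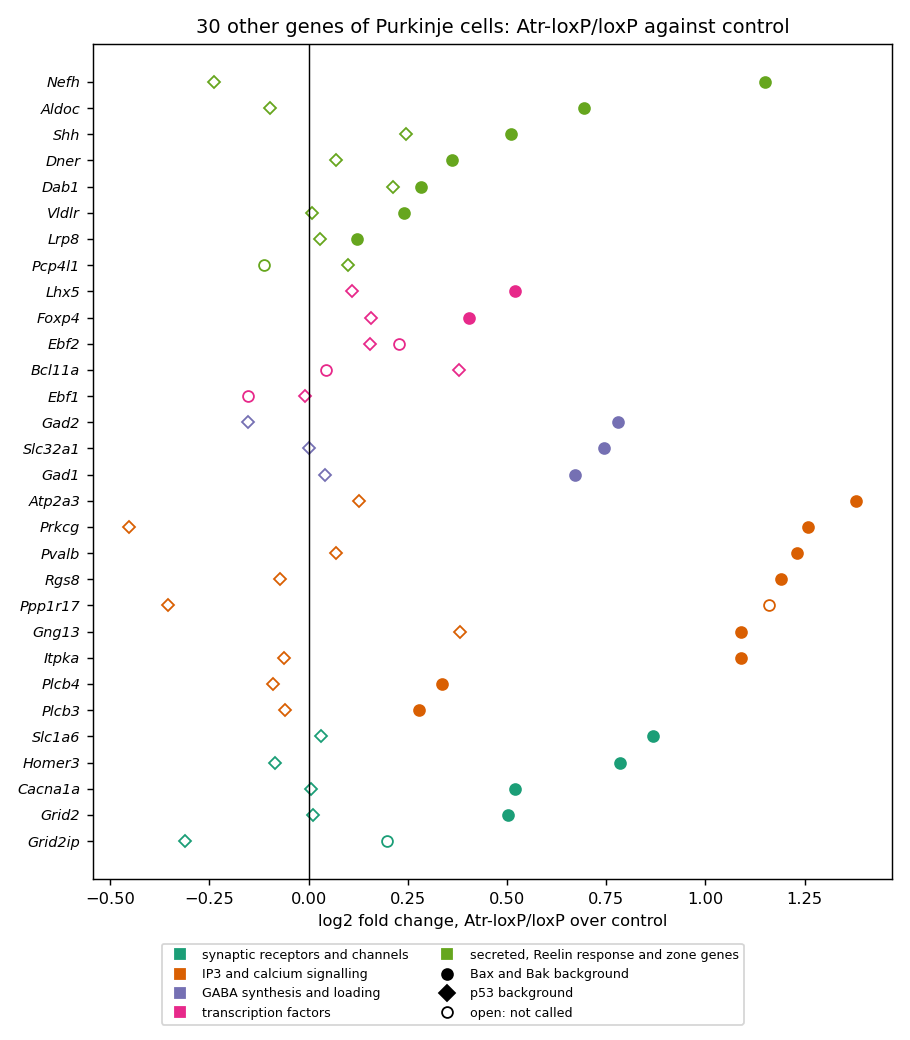
Log2 fold change (x axis) of 30 of the 32 other Purkinje cell genes between Atr-loxP/loxP cerebella and controls, coloured by role; circles are the Bax/Bak background, diamonds the p53 background, and filled symbols passed the test. In the Bax/Bak background 24 circles are filled, the rightmost being genes of IP3 and calcium signalling, and no diamond is filled.

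Markers of several other cell types were called in the same comparison, where 22.5% of all 17405 genes tested were called higher and 22% lower. Granule cell progenitor markers, from the lineage in which Math1-Cre acts, summed to 1183 to 1285 CPM in Bax/Bak controls and 797 to 921 CPM in Atr Bax/Bak cerebella, and 7 of 11 fell while 2 rose. Granule neuron markers summed to 1885 to 2723 and 1534 to 1991 CPM, with 3 of 10 lower, 0 higher and 7 not called. Interneuron markers summed to 503 to 543 and 705 to 833 CPM, and astrocyte and Bergmann glia markers to 4215 to 4737 and 5672 to 7070 CPM. Markers of deep nuclei and unipolar brush cells summed to 167 to 216 and 143 to 214 CPM. Of these, 2 of 6 were called higher and 0 lower, with a median log2 fold change of -0.01. In such short lists, the counts for these markers and for granule neurons lie near the shares of all genes. The 9 Purkinje cell genes summed to 2236 to 2609 and 2687 to 3822 CPM. Since CPM is a share of each library, these shares cannot all be read as amounts per cerebellum, and their part in the differences of the Purkinje cell genes was not tested.

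Between the p53 groups none of these lists had a gene called by edgeR, while 4 of 11 granule cell progenitor markers, 3 of 10 granule neuron markers and 1 of 11 markers of astrocytes and Bergmann glia had an unadjusted p under 0.05, as had 6.58% of all genes tested. The sums of granule cell progenitor markers were 1067 to 1226 CPM in controls and 749 to 1145 CPM with Atr-loxP/loxP. Sums of the Purkinje cell genes were 2165 to 2444 and 2321 to 2867 CPM. Choroid plexus markers, which come from tissue beside the cerebellum, varied between single libraries from 36.2 to 3817 CPM over the 4 groups, and meningeal markers from 242 to 1669 CPM, with no gene of either list called in either background. Of 12 brainstem and midbrain markers 10 or 11 averaged under 1 CPM in each group.

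Within groups the libraries were not equally rich in the 9 genes. Atr Bax/Bak library 1 was the lowest of its group for 8 of them, and library 2 was the highest for 6. Bax/Bak control 1 was the lowest control for 6. Atr p53 library 2 was the highest of its group for 4 genes (Pcp2, Pcp4, Car8 and Foxp2) and the lowest for the 4 genes Itpr1, Rora, Skor2 and Lhx1.

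After centring log2 CPM on each group's mean, the 36 pairs of the 9 genes correlated over the 16 libraries with Pearson's r from -0.5 (Pcp2 with Foxp2) to 0.85 (Itpr1 with Lhx1). Pcp4 and Car8 came next, at 0.84, followed by Rora with Lhx1 at 0.77 and Pcp2 with Pcp4 at 0.75. Foxp2 and Skor2 went with each other (0.63) more than with the rest. These values describe pairs measured in the same libraries with the same scaling.

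**Figure D5:**
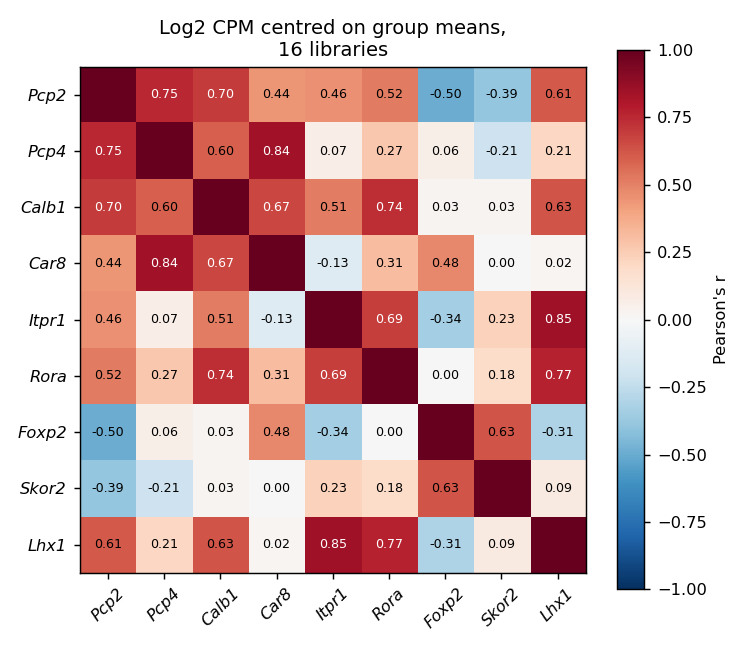
Pearson's r between the 9 genes over 16 libraries, after centring log2 CPM on group means (colour and printed value). Foxp2 and Skor2 are near 0 or negative with most other genes, and the highest pair is Itpr1 with Lhx1 at 0.85.

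A mean of at least 1 CPM was reached by 14512 genes, the 9 among them. Outside the 9, those most like their mean pattern within groups were Slc5a1 (r = 0.92), Arhgef33 (0.9), Cct5 (0.87), Stac (0.86) and Brix1 (0.83), over 16 libraries. These were picked as the 5 highest r of all these genes. The members' own r with their mean ran from 0.19 for Foxp2 to 0.9 for Calb1. Each member is part of that mean, which raises its r, so these values do not compare directly with those of the outside genes. The mean pattern was farthest from 0 in Atr Bax/Bak library 1, at -1.54 SD, and without it the r of the 5 genes was 0.76 to 0.88.

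Scaled by transcript length as TPM, the order of the 9 genes over the 4 group means was Pcp4 (1026), Car8 (407), Pcp2 (336), Calb1 (315), Itpr1 (140), Lhx1 (64.9), Rora (36.9), Foxp2 (30) and Skor2 (18.3). Pcp2, Pcp4 and the 3 calcium signalling genes thus stood above the 4 transcription factors. Only Pcp4 was separated from its neighbour in the order, and each of the later neighbours overlapped in their ranges over libraries. With the length of the longest annotated transcript in place of the expressed ones, Pcp2 moved to rank 5 with 126.

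The mix of annotated transcripts was compared for the 3 genes with at least 2 transcripts of 5% or more. Most Pcp2 counts were assigned to Pcp2-203 and Pcp2-205, which start at 3625049 and 3625002, 13 and 34 bases from the most downstream RefSeq start, whose upstream sequence is printed above. Pcp2-203 held 53.6% ± 1.61 (SD, n = 5) in Atr Bax/Bak cerebella and 54.4% ± 3.54 (SD, n = 4) in Bax/Bak controls, and Pcp2-205 held 28.9% ± 1.79 and 28.1% ± 3.36. Itpr1-205 held 68.9% ± 1.54 and 68.1% ± 3.61 of Itpr1, and Foxp2-207 held 53% ± 2.99 and 50.5% ± 2.77 of Foxp2. None of 7 transcript shares differed by the two-sided exact permutation test (adjusted p = 0.746 for all 7, none with an unadjusted p under 0.05, smallest p the design allows 0.0159). For the p53 groups the smallest exact p possible is 0.0571, so no share could pass there.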

How the data were processed

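Whole cerebella were profiled by poly-A selected, stranded RNA sequencing in 17 samples of 4 genotypes, per the labels' protocols. The values the authors deposited are estimated counts, 1 table per background, with a row for each Ensembl transcript and 2 lanes per sample; no normalization is recorded. GRCm38, mm9, edgeR and kallisto (0.42.4) appear in the submitters' processing notes without roles. Lanes were added, and 92284 of 94080 transcripts were assigned to 31438 genes of GENCODE M21 (GRCm38) and summed; transcripts that did not match held 0.779% to 1.04% of counts in the deep libraries. The sums were rounded. The shallow Atr p53 sample 3, whose 2 lane columns are identical, was left out.

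Each background was fitted alone with edgeR 4.0.16 in R 4.3.3 (TMM, expression filter by group, robust quasi-likelihood test, Benjamini-Hochberg adjustment over all genes, threshold 0.05); the interaction and the contrast of controls came from 1 fit of 16 libraries. All 9 genes passed the filter. The scripts were tested on simulated data. Totals of 42987953 to 100659645 counts make 1 count at most 0.0233 CPM. Genes named beyond the 9 are Shh and the 2 of smallest p in each role, and the 5 most alike in pattern; 2 genes of these lists are not reported here. Ebf1, Ebf2 and Bcl11a, named as the rest of their list, and Pet100 and Igsf5, which overlap members, lie outside this rule and were chosen after their values were seen. The members, the lists and the tests were chosen with earlier results of these data known. Alternatives were DESeq2 1.42.0, limma-voom (limma 3.58.1), other scalings and filters, single lanes, a threshold of 0.01, subsets by number series and leaving out each library.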

Additional observations from a re-analysis of the deposited data

Results flagged for a closer look

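Of the 9 genes and 10 others named by rule, 8 had a larger difference with Atr-loxP/loxP in the Bax/Bak background by the interaction test. Of all 18166 genes tested, 8.08% were called larger. Apart from Shh, those others were named for small p in the Bax/Bak fit, whose libraries enter the interaction, which favours calls among them. The differences between the log2 fold changes were 0.98 for Pcp2, 0.73 for Itpr1, 0.46 for Rora, 0.51 for Cacna1a, 1.15 for Itpka, 0.74 for Slc32a1, 0.93 for Gad2 and 0.78 for Aldoc, with edgeR adjusted p from 0.000563 (Itpka) to 0.0405 (Rora). Background, table and number series cannot be told apart in these values.

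Single libraries far from the rest of their group by Dixon's criterion were found for 3 genes: Shh at 7.59 CPM in Atr Bax/Bak library 4 (next 6.77), Foxp4 at 72.3 CPM in Bax/Bak control 2 (next 67.5) and Lhx5 at 28.9 CPM in Bax/Bak control 1 (next 35.2). This criterion marks about 1 in 20 groups by chance, and 57 groups were examined.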

How the results depend on the processing

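In the Bax/Bak background Calb1, Itpr1 and Rora stayed higher and called in all 21 alternatives, and Pcp2 in 20. The number of the 9 genes called higher was 4 at a threshold of 0.01 and 4 with series 1842 controls alone, and 5 to 7 on leaving out single libraries. Over all genes tested, 2519 of 17405 were higher at 0.01, 20.2% with series 1842 controls, and 2974 to 4045 genes on leaving out libraries. One of the 9, Lhx1, was called lower with DESeq2 and with series 1842 controls, and 0 to 1 on leaving out single libraries. Genes called lower in all numbered 4265 with DESeq2 and 4421 with series 1842 controls, and 3401 to 4361 on leaving out libraries. Foxp2 changed sign to 0 with upper-quartile scaling, 0.03 with limma-voom, 0.01 in the second lane and 0.26 with series 1842 controls, and ran from -0.12 to 0.06 on leaving out libraries.

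In the p53 background none of the 9 genes was called in any of 19 alternatives. Genes called there numbered 14 with no filter, 128 with DESeq2, 4 with limma-voom, 2 at a threshold of 0.01, 4 in the first lane, 70 with all 4 groups in 1 fit, 23 with the shallow library kept, 5 within series 1843, and 2 to 13 on leaving out libraries. Rora, Foxp2 and Skor2 turned to -0.09, -0.06 and -0.03 within series 1843. On leaving out libraries Pcp2 ran from -0.12 to 0.04, Pcp4 from -0.04 to 0.21 and Itpr1 from -0.11 to 0.06.

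For the interaction 1 of the 9 genes was called with no filter and 1 at a threshold of 0.01, and 1 to 4 on leaving out libraries. Genes called numbered 1175 at 0.01 and 1629 to 3561 on leaving out libraries. With no filter 1028 genes were larger and 1535 smaller. Car8 was at 0.02 with the shallow library kept and -0.12 to 0.15 on leaving out libraries. Between controls, 0 of the 9 genes were called lower at 0.01, with 1291 genes called. On leaving out libraries 1 to 2 were called higher, 0 to 2 lower and 1883 to 4698 genes in all, while Pcp2 ran from -0.08 to 0.24 and Car8 from -0.07 to 0.09. Leaving out a library can leave 2 in a group, and a fit within series 1843 has a single control, assumed to vary like the Atr libraries. No paired analysis was possible because the sample numbers are not replicate numbers shared between groups. The causes of these changes were not tested. Depth limited none of the 9 genes, whose lowest value, 14.1 CPM, lies far above 1 count.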
